A study of Gallus gallus with 8 samples.

Results

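The genes described here encode the machinery by which a cell makes and ships secreted and membrane proteins: the particle and channel that carry a nascent chain into the endoplasmic reticulum (ER), the enzymes and chaperones that process and fold it, and the vesicle coats that carry it between the ER and the Golgi. They were chosen by gene symbol in the probe annotation of the array (the SEC11 to SEC16, SEC22 to SEC24, SEC31 and SEC61 to SEC63 genes, the SSR, SRP, SPCS, PDIA and COP coat genes, selected DNAJ genes, and HSPA5, HSP90B1, CALR, CANX, RPN1, RPN2, DAD1, DDOST and SERPINH1). Each gene was represented by the probe set with the highest mean signal. The choice gave 63 of the 13009 genes that the annotation names, and 61 of them passed the filter on low signal, among 10541 genes that did. SEC31B and SEC14L5 did not pass, with normalized signals of 0.659 to 6.84 and 0.866 to 10.5 over the 8 arrays. The symbols SEC14L1, SEC14L2, SEC14L5 and DNAJC30 match the spelling of the rule, but the SEC14-like proteins are cytosolic lipid-binding proteins and DNAJC30 is a mitochondrial protein, so these were kept apart below.

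Most secreted proteins are recognised by the signal recognition particle while they are being translated, are docked at its receptor and are threaded through the SEC61 channel. Signal peptidase removes the leader, oligosaccharyltransferase adds N-linked glycans, and HSPA5, HSP90B1, the lectins CALR and CANX and the protein disulfide isomerases fold the chain. COPII coats bud cargo from the ER and COPI coats return escaped proteins to it. The yolk sac endoderm is a secretory epithelium that makes serum proteins and lipoproteins before the liver does, and these proteins pass through this route.

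Chicken eggs were incubated at 38 °C, and the yolk sac endoderm was peeled from the mesoderm after dispase on embryonic days 1, 2, 3 and 4. Each day had 2 total RNA samples, with 5 µg of each hybridised to its own Affymetrix Chicken Genome Array, 8 arrays in all. Each sample pooled tissue gathered every 4 h within the day, so errors and p-values measure the spread between pools, not embryos. No strain, sex or treatment is given in the labels, and by the labels the 4 groups differ in age alone.

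The deposited signals were not on a common level (trimmed means 76.3 to 169.8, the highest on day 1 replicate 2), so the arrays were quantile normalized. All changes are therefore relative to the whole array. They are given as log2 differences of (signal + 16) with their SE and the adjusted p of limma. Over all probe sets the median log2 difference between day 4 and day 1 was -0.54 as deposited and 0.01 after normalization. Beta-actin gave a 3'/5' signal ratio, which climbs when RNA is degraded, of 2.91 and 1.5 at day 1, 1.74 and 3.77 at day 2, 2.63 and 3.36 at day 3, and 4.30 and 3.22 at day 4. Of 11 endoderm markers 10 passed the filter, among them TTR, APOA1 and APOB, while RBP4 did not. The summed signal of 15 mesodermal and mesenchymal markers set 2 arrays apart: it was 18070 at day 2 replicate 1 and 7509 at day 3 replicate 1, against 532 to 822 on the other arrays of days 2 to 4 and 2794 and 3531 at day 1. The sum of 7 erythroid markers was 3512 and 573 at day 1 and 15780 to 50060 on later days. The sum of 9 endothelial markers was 1968 and 1324 at day 1 and 301 to 2568 later, with EMCN below the filter.

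**Figure D1:**
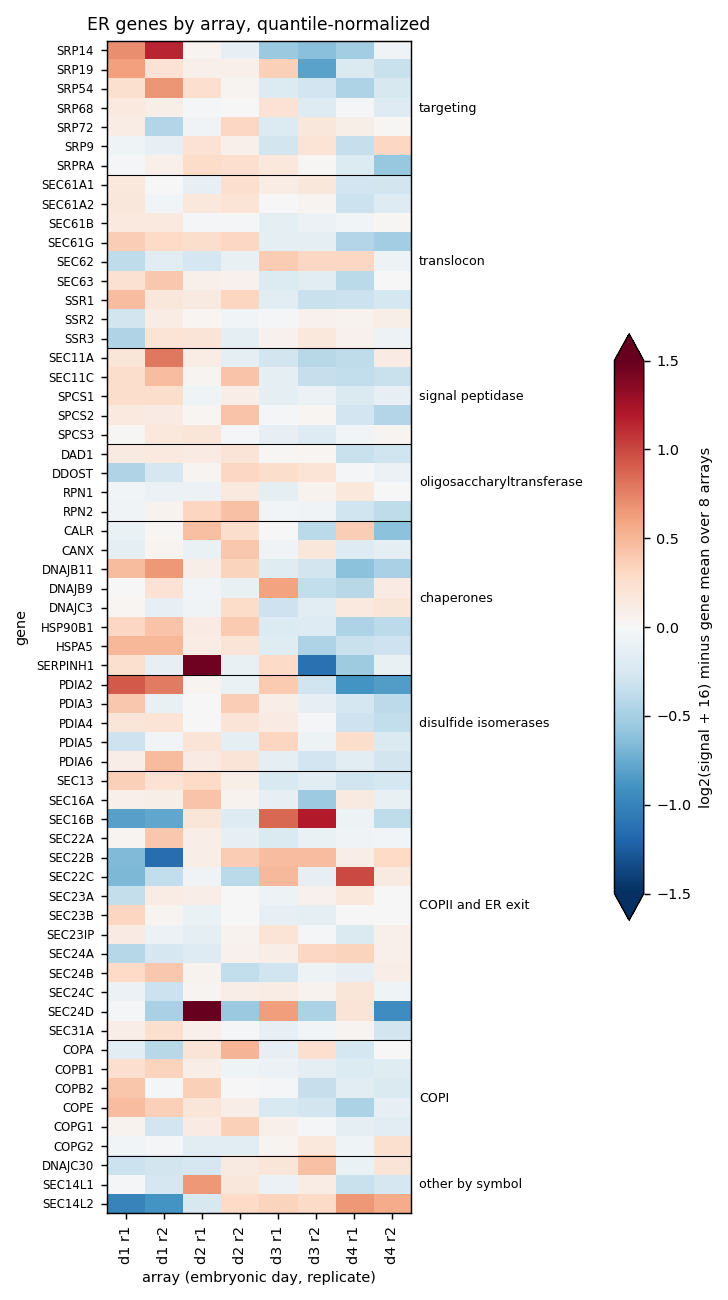
Each row is 1 of the 61 genes that passed the filter, grouped by role, and each column 1 array. Colour gives log2(normalized signal + 16) minus the gene's mean over the 8 arrays, cut at 1.5 either way. Most rows are pale, and the darkest cells include SRP14 at day 1, SEC16B on day 3, and SERPINH1 and SEC24D on day 2 replicate 1.

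Between day 1 and day 4 most of the genes chosen by symbol did not pass the test, and most of those that did fell. Of 61 genes 14 were lower on day 4 (23.0%) and 2 were higher (3.28%), while 16.2% of all genes tested were lower and 13.1% higher by the same rule. The 61 genes were brighter than most, with a median normalized signal of 819.4 against 124.9 over all genes. The shares of all genes given here were not matched for signal. The 14 were SRP14, SRP54, SEC61G, SSR1, SEC11C, DAD1, HSPA5, HSP90B1, DNAJB11, PDIA2, PDIA4, SEC13, COPE and COPB1, and the 2 were SEC22B and SEC14L2. Without SEC14L1, SEC14L2 and DNAJC30, which do not belong to the ER route, 14 of 58 were lower and 1 higher. In all 14 both day 4 arrays lay below both day 1 arrays. This largely follows from choosing them by a test on these arrays, and adds no support. At an unadjusted p under 0.05 the counts were 21 lower and 5 higher, beside 24.5% and 19.7% of all genes. Both day 4 arrays lay below both day 1 arrays for 32 of the 61 and above them for 11, beside 38.5% and 33.2% of all genes. The median log2 change of the 61 genes was -0.25, against -0.05 over all genes. The day 4 arrays also had higher beta-actin ratios than the day 1 arrays and higher sums of endoderm markers (54630 and 60280, against 29310 and 33600). Their erythroid sums were also higher (25490 and 15780, against 3512 and 573), while the endothelial sums (487 and 301, against 1968 and 1324) and the mesenchymal sums (822 and 532, against 2794 and 3531) were lower. Single markers did not all follow these sums. Of 7 erythroid markers limma called 6 higher on day 4 and TAL1 lower (-2.87, adjusted p = 0.0055). Of 8 endothelial markers that passed the filter, it called PECAM1 higher (1.76, adjusted p = 0.029) and 2 lower. Of 15 mesenchymal markers it called 0 higher and 2 lower. Of the 10 endoderm markers that passed the filter, limma called 6 higher on day 4. The mean signal rose from 4.44 to 8580 for AFP and from 3081 to 10438 for TF. For TTR, which was not called, it was 9232 on day 1 and 9576 on day 4. The part of any of these ratios and sums in the counts was not tested. In bulk tissue fewer cells of a type and less RNA per cell cannot be told apart.

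Shares of all genes were counted only for the main fit and the deposited signals, not with arrays left out or other settings. The size of the count of 14 lower genes depended on single arrays and on scaling. It was 6 without day 1 replicate 1, 4 without day 1 replicate 2, 5 without day 4 replicate 1 and 8 without day 4 replicate 2. Without day 2 replicate 1 and day 3 replicate 1, the arrays with the high mesenchymal sums, it was 9. HSPA5, HSP90B1, SEC61G, PDIA2 and SEC14L2 passed with each of the 8 arrays left out in turn, and all 16 kept their direction. The direction could hardly turn there, since for each of the 16 both day 4 arrays lay on the same side of both day 1 arrays. Of the genes named, PDIA2 passed the filter through days 1 to 3, and its day 4 signals of 1.24 and 1.89 lay below the filter signal. The size of its fall therefore depends on the 16 added before the logarithm. On the deposited scale 29 genes were lower, the 14 among them, and 0 higher, beside 33.4% and 4.63% of all genes. At an unadjusted p under 0.05 on that scale 35 of the 61 were lower and 1 higher, and 4633 and 654 of the 10541 genes.

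**Figure D2:**
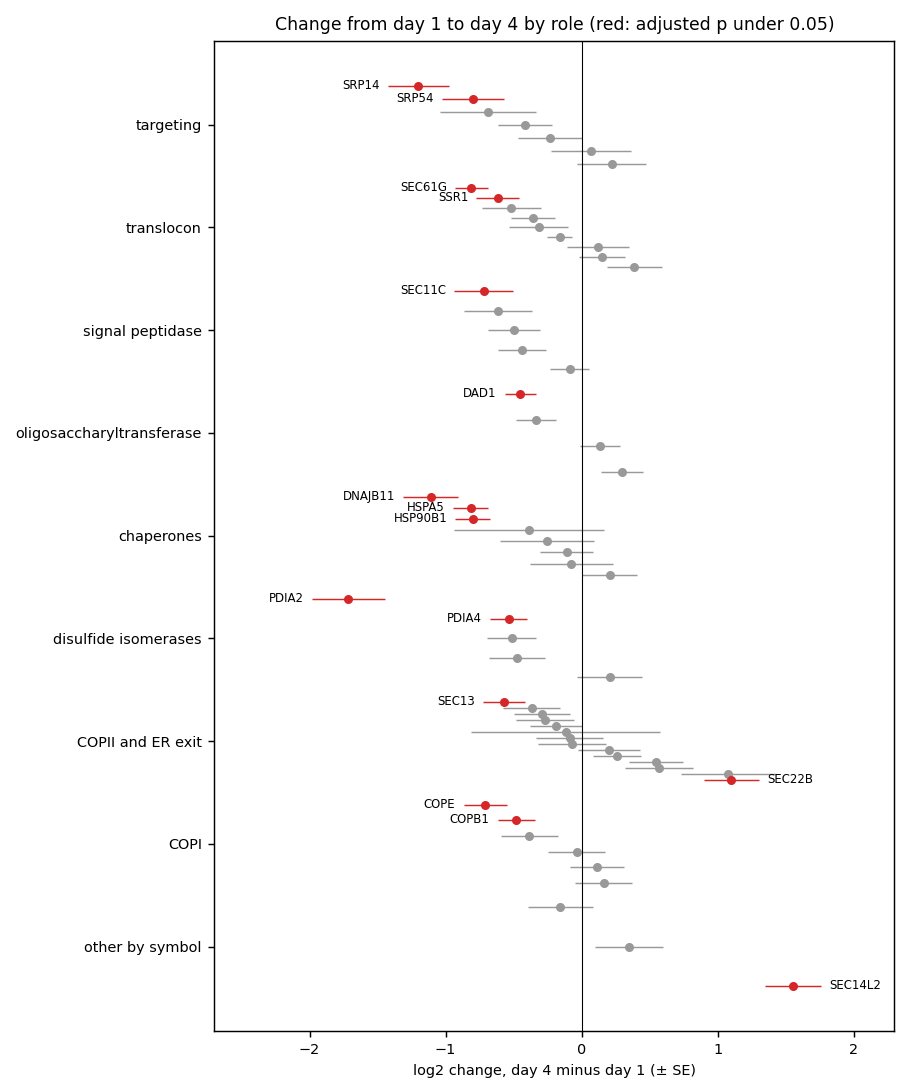
Each point is 1 of the 61 genes, placed by its log2 change from day 1 to day 4 with the SE as a bar, and grouped by role. Red points had an adjusted p under 0.05 in limma, and 14 of these 16 lie left of 0.

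Among the 7 genes of targeting, SRP14 and SRP54 fell. SRP14 encodes a subunit of the Alu domain of the signal recognition particle, which slows translation while the ribosome finds the membrane. Its normalized signals were 1495 and 2036 at day 1, 947 and 840 at day 2, 617 and 589 at day 3, and 637 and 885 at day 4. The day 1 arrays were the highest and did not overlap with any later day. The log2 change was -1.20 ± 0.23 to day 4 (adjusted p = 0.0078) and -0.96 ± 0.23 already to day 2 (adjusted p = 0.045). The call to day 4 was lost without day 1 replicate 2 (adjusted p = 0.074) and without day 4 replicate 1 (adjusted p = 0.053). The call to day 2 was kept with 2 of the 8 left-out arrays, both of day 4.

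SRP54 encodes the GTPase that binds the signal sequence. It measured 396 and 535 at day 1, 401 and 345 at day 2, 287 and 270 at day 3, and 238 and 279 at day 4. All arrays of days 3 and 4 were below those of days 1 and 2. The change to day 4 was -0.80 ± 0.23 (adjusted p = 0.037), and it passed in 2 of 8 left-out fits, with adjusted p up to 0.22. SRP72, a scaffold subunit of the particle, measured 687 and 463 at day 1, 611 and 793 at day 2, 549 and 718 at day 3, and 677 and 644 at day 4 (0.22 ± 0.25, adjusted p = 0.56). SRP19, SRP68, SRP9 and the receptor gene SRPRA had changes of -0.69, -0.23, 0.07 and -0.42, none past the threshold.

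Of the 9 translocon genes SEC61G and SSR1 fell. SEC61G encodes the small gamma subunit that clamps the SEC61 channel. Its signals were 4475 and 4242 at day 1, 4142 and 4295 at day 2, 3136 and 3150 at day 3, and 2555 and 2403 at day 4. The arrays of days 1 and 2 lay together, those of day 3 were lower and those of day 4 lower again. The change from day 1 to day 4 was -0.81 ± 0.12 (adjusted p = 0.0031), with an adjusted p of at most 0.029 when any array was left out. The steps from day 2 to 3 and from day 3 to 4 did not pass singly.

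SSR1 encodes the alpha subunit of the translocon-associated protein complex, which assists chains with weak signal sequences. It measured 3275 and 2667 at day 1, 2594 and 2951 at day 2, 2103 and 1873 at day 3, and 1880 and 1967 at day 4, a change of -0.62 ± 0.16 (adjusted p = 0.025). Days 3 and 4 were below days 1 and 2 on every array. The call was lost without any 1 array of day 1 or day 4 (adjusted p up to 0.15), and the 2 dimmer probe sets of SSR1 that passed the filter had changes of -0.09 and 0.06.

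The pore subunit SEC61A1 was at 2634 and 2372 at day 1 and 1943 and 1949 at day 4 (adjusted p = 0.14). SEC61B, the beta subunit, stayed between 7851 and 9559 on all 8 arrays (adjusted p = 0.24). SEC62, which serves short and post-translationally inserted chains, read 520 and 605 at day 1, 562 and 627 at day 2, 887 and 850 at day 3, and 844 and 644 at day 4 (0.39 ± 0.20, adjusted p = 0.20). The other changes to day 4 were -0.52 for SEC63, -0.32 for SEC61A2, 0.15 for SSR2 and 0.12 for SSR3, and none passed.

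All 5 signal peptidase genes had lower means on day 4, and SEC11C alone passed. The change to day 4 was below 0 for 68.9% of the 61 genes and for 52.5% of all genes. SEC11C, a catalytic subunit, measured 486 and 561 at day 1, 412 and 545 at day 2, 361 and 311 at day 3, and 307 and 316 at day 4. Day 4 was below day 2 and day 1 on both arrays. The change was -0.72 ± 0.22 (adjusted p = 0.046), and it passed in 2 of 8 left-out fits, with adjusted p up to 0.22. The alternative catalytic subunit SEC11A read 1463 and 2240 at day 1, 1396 and 1173 at day 2, 1064 and 963 at day 3, and 984 and 1400 at day 4 (-0.62 ± 0.25, adjusted p = 0.11). The accessory subunits SPCS1, SPCS2 and SPCS3 changed by -0.44, -0.50 and -0.09 without passing.

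The 4 oligosaccharyltransferase genes went different ways. DAD1, a subunit needed for stability of the complex, fell: it read 4242 and 4277 at day 1, 4229 and 4415 at day 2, 3912 and 3947 at day 3, and 3075 and 3145 at day 4. Only day 4 stood clearly below the rest. The change was -0.45 ± 0.11 (adjusted p = 0.023), lost without either day 1 array and without day 4 replicate 1 (adjusted p up to 0.11). RPN2, a membrane subunit also called ribophorin, peaked on day 2, with 1610 and 1737, 2103 and 2269, 1630 and 1612, and 1359 and 1283 on the 4 days in turn. It passed the F-test over the days (adjusted p = 0.041), and its change from day 1 to day 4 did not pass (-0.34 ± 0.14, adjusted p = 0.13).

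DDOST, another membrane subunit, measured 1714 and 1976 at day 1, 2422 and 2936 at day 2, 2833 and 2710 at day 3, and 2308 and 2222 at day 4. Both day 1 arrays were below every later array, but neither the F-test (adjusted p = 0.074) nor the step to day 2 (0.53 ± 0.15, adjusted p = 0.082) passed. RPN1 was at 2532 to 3121 on all arrays (adjusted p = 0.54 from day 1 to day 4).

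Among the 8 chaperone genes HSPA5, HSP90B1 and DNAJB11 fell. HSPA5 encodes BiP, the HSP70 of the ER lumen, and DNAJB11 a J-domain partner that delivers unfolded chains to it. HSPA5 had the same rank on both day 1 arrays and therefore the same normalized signal, 6648, followed by 5070 and 5380 at day 2, 4137 and 3413 at day 3, and 3729 and 3802 at day 4. The day 1 arrays were above all later ones and day 2 above days 3 and 4. The change to day 4 was -0.82 ± 0.13 (adjusted p = 0.0038), a ratio of 0.567, and the adjusted p was at most 0.042 with any array left out. As deposited the signals were 6349 and 8310 at day 1 and 3378 and 3416 at day 4.

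HSP90B1 encodes GRP94, the HSP90 of the ER, which folds a restricted set of clients. Its signals were 5845 and 6325 at day 1, 5092 and 6154 at day 2, 4064 and 4106 at day 3, and 3397 and 3576 at day 4. Days 1 and 2 overlapped, day 3 was below both and day 4 below day 3. The change was -0.80 ± 0.13 (adjusted p = 0.0044). A second, much dimmer probe set of the gene read 109 and 110 at day 1 and 165 and 142 at day 4.

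DNAJB11 read 560 and 633 at day 1, 426 and 506 at day 2, 351 and 328 at day 3, and 255 and 280 at day 4. Each day was below the day before on both arrays. The change of -1.11 ± 0.20 (adjusted p = 0.0069) missed the threshold without day 1 replicate 2 (adjusted p = 0.061).

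The lectin chaperones did not pass. CALR, which holds glycoproteins in the lumen, read 802 and 867 at day 1, 1184 and 1032 at day 2, 865 and 648 at day 3, and 1118 and 558 at day 4. The day 4 arrays lay on either side of day 1, and the change of -0.08 ± 0.31 (adjusted p = 0.88) turned to 0.41 without day 4 replicate 2. CANX, its membrane-bound relative, read 1659 and 1896 at day 1, 1712 and 2448 at day 2, 1774 and 2070 at day 3, and 1605 and 1680 at day 4 (-0.11 ± 0.20, adjusted p = 0.72). DNAJB9 and DNAJC3, further J-domain proteins of the ER, changed by -0.25 and 0.21 (adjusted p = 0.63 and 0.50). The value of DNAJC3 was -0.55 on the deposited scale.

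**Figure D3:**
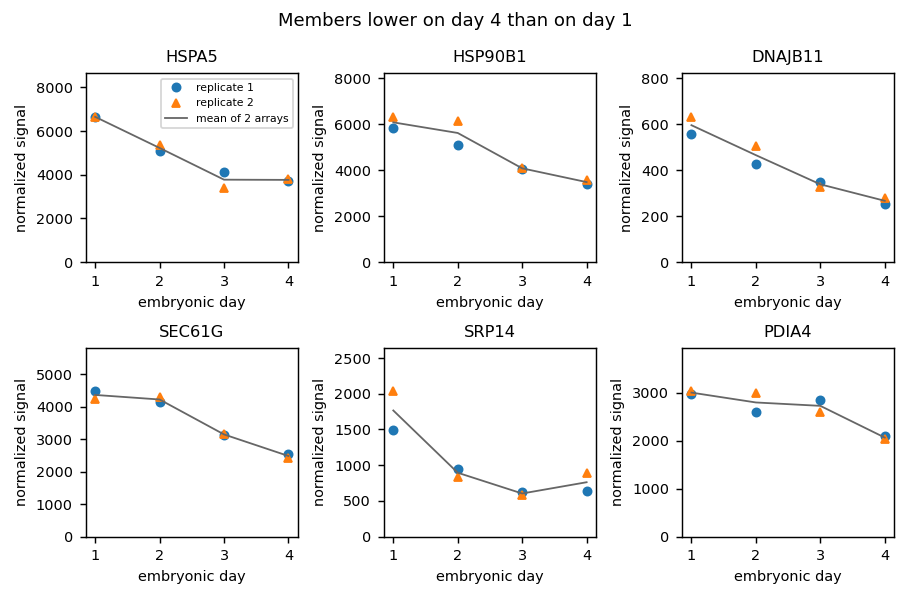
Normalized signal of 6 genes that were lower on day 4, by embryonic day, with 1 symbol per array and a line through the mean of the 2 arrays. HSPA5 and DNAJB11 descend from day 1 on, SRP14 drops mostly between days 1 and 2, and SEC61G, HSP90B1 and PDIA4 are lower from day 3 or day 4 on.

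Of the 5 disulfide isomerase genes PDIA2 and PDIA4 fell. PDIA4, also called ERp72, read 2973 and 3034 at day 1, 2602 and 2993 at day 2, 2858 and 2595 at day 3, and 2102 and 2029 at day 4. Day 4 was below every earlier array. The change was -0.54 ± 0.14 (adjusted p = 0.025), and it was lost without any 1 array of day 1 or day 4 (adjusted p up to 0.13). PDIA2, a pancreas-enriched isomerase in mammals, had low signals of 44.7 and 38.9 at day 1, 17.0 and 14.0 at day 2, 26.1 and 10.2 at day 3, and 1.24 and 1.89 at day 4. Day 4 was below the filter signal of 9.97, so the size of the change (-1.72 ± 0.27, adjusted p = 0.0039) depends on the 16 added before the logarithm.

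PDIA3, the partner of the lectin chaperones, was at 3584 and 2508 at day 1 and 2251 and 2061 at day 4 (-0.47 ± 0.20, adjusted p = 0.13). PDIA6 changed by -0.51 (adjusted p = 0.074). PDIA5 read 729 and 881 at day 1, 1038 and 829 at day 2, 1139 and 859 at day 3, and 1098 and 782 at day 4 (0.21 ± 0.24, adjusted p = 0.57), a value that was -0.43 as deposited.

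COPII and ER exit held 14 of the genes, of which SEC22B rose and SEC13 fell. SEC22B encodes a SNARE that fuses ER-derived vesicles with their targets. Its signals were 946 and 676 at day 1, 1627 and 1980 at day 2, 2096 and 2088 at day 3, and 1622 and 1859 at day 4. Every later array was above both day 1 arrays. The log2 change was 1.15 ± 0.20 to day 2 (adjusted p = 0.014) and 1.10 ± 0.20 to day 4 (adjusted p = 0.0069). The latter missed the threshold without day 1 replicate 2 (0.89, adjusted p = 0.057) and on the deposited scale (0.51, adjusted p = 0.16). The former missed it without day 1 replicate 2 (adjusted p = 0.12) and without day 2 replicate 2 (adjusted p = 0.076).

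SEC13, which with SEC31 forms the outer cage of the coat and also belongs to the nuclear pore, read 2184 and 1987 at day 1, 2094 and 1816 at day 2, 1448 and 1505 at day 3, and 1383 and 1412 at day 4. Days 3 and 4 were below days 1 and 2 on every array. The change was -0.57 ± 0.15 (adjusted p = 0.028), which passed in 2 of 8 left-out fits (adjusted p up to 0.14). SEC31A, its partner, changed by -0.29 (adjusted p = 0.34).

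SEC16B, a scaffold of ER exit sites, was lowest on day 1, where it lay below the filter signal, and highest on day 3. It read 0.901 and 1.39 at day 1, 17.8 and 10 at day 2, 38.0 and 52.0 at day 3, and 12.3 and 6.87 at day 4. The day 3 arrays were above all others and the day 1 arrays below all others. The F-test over the days had an adjusted p of 0.0089, no single comparison passed, and the gene passed the filter through days 2 and 3. Its relative SEC16A ranged from 3.04 to 21.4.

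The cargo-binding SEC24 genes did not move as 1 group. SEC24A read 572 and 648 at day 1 and 983 and 820 at day 4 (0.55 ± 0.20, adjusted p = 0.079), and SEC24B 1043 and 1124 against 770 and 905 (-0.37 ± 0.21, adjusted p = 0.23). SEC24C changed by 0.26, and the inner coat genes SEC23A and SEC23B by 0.20 and -0.19, with adjusted p of 0.33 to 0.56. SEC22A and SEC23IP changed by -0.27 and -0.09. SEC22C, at 40.8 and 54.0 at day 1 and 162 and 83.4 at day 4, just missed the threshold (1.08 ± 0.35, adjusted p = 0.056).

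In the COPI coat COPE and COPB1 fell among 6 genes. COPE, the epsilon subunit, read 2846 and 2654 at day 1, 2340 and 2215 at day 2, 1756 and 1706 at day 3, and 1482 and 1896 at day 4. Days 2 and 3 were each below the day before on both arrays, and day 4 lay on either side of day 3. The change was -0.71 ± 0.16 (adjusted p = 0.016), lost without either day 1 array and without day 4 replicate 1 (adjusted p up to 0.089). COPB1, the beta subunit, read 2656 and 2822 at day 1, 2402 and 2136 at day 2, 2109 and 2014 at day 3, and 1945 and 1973 at day 4. Each day was below the day before on both arrays. The change was -0.48 ± 0.14 (adjusted p = 0.038) and passed in 2 of 8 left-out fits, with adjusted p up to 0.18. COPA, the alpha subunit, read 1039 and 865 at day 1, 1329 and 1659 at day 2, 1066 and 1390 at day 3, and 967 and 1167 at day 4 (0.16 ± 0.21, adjusted p = 0.62). COPB2, COPG1 and COPG2 changed by -0.39, -0.04 and 0.12.

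Of the genes kept apart, SEC14L2 had the largest rise of the 61 from day 1 to day 4. It encodes a tocopherol-binding protein that in mammals is also known to stimulate cholesterol synthesis. Its signals were 455 and 488 at day 1, 778 and 1139 at day 2, 1166 and 1129 at day 3, and 1462 and 1370 at day 4. Every day was above day 1, and day 4 above all others. The change was 0.97 ± 0.21 to day 2 (adjusted p = 0.032) and 1.55 ± 0.21 to day 4 (adjusted p = 0.0021). To day 2 it passed in 3 of the 8 left-out fits, and to day 4 in all 8. On the deposited scale the change to day 4 was 0.87 (adjusted p = 0.059). SEC14L1 read 269 and 225 at day 1, 434 and 308 at day 2, 254 and 295 at day 3, and 211 and 226 at day 4, highest on day 2 (adjusted p = 0.67 from day 1 to day 4). DNAJC30 changed by 0.35 (adjusted p = 0.35).

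Between successive days few of the 61 genes passed. From day 1 to day 2, SEC22B and SEC14L2 were higher and SRP14 lower, 2 and 1 of 61 genes, beside 5.24% and 2.80% of all genes. Both day 2 arrays lay above both day 1 arrays for 14 and below them for 17, beside 27.3% and 32.1%, and 6 were higher and 4 lower at an unadjusted p under 0.05, beside 13.5% and 14.6%. At an unadjusted p under 0.05 the deposited signals gave 2 higher and 5 lower of the 61, and 572 and 2775 of the 10541 genes. As deposited limma called 0 higher and 1 lower at the adjusted threshold, beside 2.36% and 4.27% of all genes. The lower gene there was PDIA2 (-1.31, adjusted p = 0.038), and SRP14 did not pass (adjusted p = 0.069). From day 2 to day 3, limma called 0 of the 61 and 0% of all genes; at an unadjusted p under 0.05, 9 were lower and 2 higher, beside 8.69% and 6.56% of all genes. As deposited the same counts were 1 lower and 1 higher of the 61, and 624 and 341 of the 10541 genes. Both day 3 arrays lay below both day 2 arrays for 29 of the 61 (47.5%), against 25.4% of all genes, and above them for 6 (9.84%), against 22.7%. From day 3 to day 4 limma again called 0 of the 61 and 0% of all genes, and 7 were lower and 0 higher at an unadjusted p under 0.05, beside 3.70% and 2.76%. Both day 4 arrays lay below both day 3 arrays for 21 and above them for 8, beside 19.2% and 18.3%. The normalized signals of the 61 genes summed to 84340 to 88022 on the arrays of days 1 and 2, 74230 and 76112 at day 3, and 70236 and 70439 at day 4, a sum that the brightest probe sets dominate.

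Over all 4 days the F-test passed for 12 genes (19.7%), beside 22.7% of all genes. They were SEC14L2, SEC61G, HSPA5, SEC22B, SEC16B, HSP90B1, SRP14, PDIA2, DNAJB11, COPE, RPN2 and SSR1. Of these, SEC16B passed the filter through days 2 and 3 and PDIA2 through days 1 to 3, where they were higher. As deposited 12 also passed, beside 26.7% of all genes, and 9 were shared: RPN2, SEC14L2 and SEC22B were lost, and SEC11C, SEC13 and SRP54 were gained. The F-test counted 0 without day 1 replicate 2 and 1 without day 1 replicate 1. The span between the highest and the lowest day mean was under 1 on the log2 scale for 53 of 61 genes (86.9%), against 65.6% of all genes. That share too was not matched for signal, which was higher for the 61 genes as given above. The day of the highest mean was day 1 for 26 genes, day 2 for 16, day 3 for 12 and day 4 for 7. Day 1 held 42.6% of them, near the 40.5% of all genes, and day 3 held 19.7% and 23.7%. Day 2 held 26.2% of them and 12.9% of all genes, and day 4 held 11.5% and 22.8%.

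SERPINH1 and SEC24D were over 2-fold higher in replicate 1 than in replicate 2 on days 2 and 3. SERPINH1 encodes HSP47, the collagen-specific chaperone, and SEC24D a COPII cargo subunit needed for procollagen export in vertebrates. SERPINH1 read 680 and 525 at day 1, 1604 and 530 at day 2, 700 and 254 at day 3, and 389 and 529 at day 4. SEC24D read 53.4 and 34.4, 204 and 31.8, 92.3 and 34.6, and 64.6 and 21 on the same days. Replicate 1 was the higher by 3.03 times and 2.76 times for SERPINH1 at days 2 and 3, and by 6.41 and 2.67 times for SEC24D. On log2(signal + 16) these were the only 2 of 61 genes over 2-fold higher in replicate 1 on both days (beside 1.73% of all genes), and 0 were lower (beside 0.161%). So few genes are no trait of the 61. The coat genes SEC13, SEC23A and SEC31A were at 1.15, 1.07 and 1.06 times replicate 2 at day 2, and 0.962, 0.904 and 0.943 times at day 3. Of the further list described below, FKBP7 read 1365 and 121 at day 2 and 376 and 117 at day 3. MIA3 of that list read 150 and 193, then 307 and 292.

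The same 2 arrays held the high mesenchymal sums. COL1A1 read 2751 and 1324 there, against 5.76 to 117 on the other 6 arrays, and COL3A1 4672 and 1482 against 29.1 to 77.5. Not all of the 15 markers were highest there. POSTN read 8.63 and 8.27 on these arrays, against 51.9 and 49.4 at day 1. TWIST1 and PDGFRA were also higher on both day 1 arrays. The part of any mesenchymal cells in the SERPINH1 and SEC24D values was not tested. Neither gene passed in any comparison between days (-0.39 ± 0.55 and -0.12 ± 0.69 from day 1 to day 4, adjusted p of 0.65 and 0.92). The other probe sets of SEC24D that passed the filter were also highest on day 2 replicate 1, with 111 and 35.5.

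**Figure D4:**
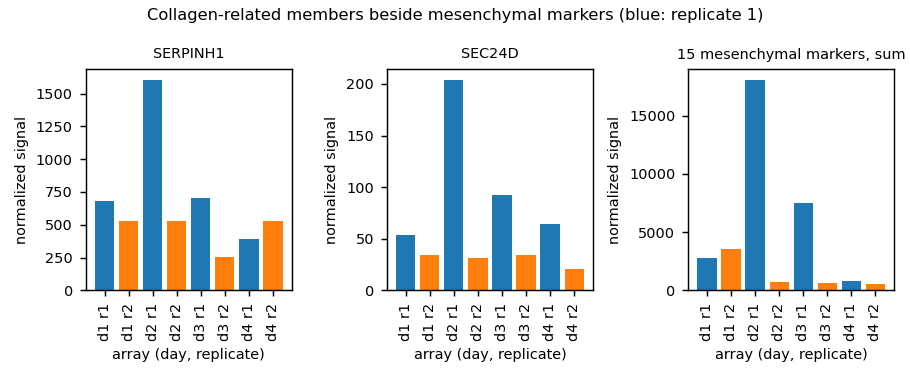
Normalized signal of SERPINH1, of SEC24D and of the sum over 15 mesenchymal markers on each array (blue for replicate 1, orange for replicate 2). All 3 panels have their highest bar on day 2 replicate 1 and their second highest on day 3 replicate 1.

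Further genes of the same route, outside the symbol rule, were read from a list of 85, of which 63 were on the array and 62 passed the filter. From day 1 to day 4, 8 rose (12.9%) and 5 fell (8.06%), near the 13.1% and below the 16.2% of all genes, and the median change was -0.16. The rises were those of TRAM2, CREB3L3, TUSC3, MIA2, MIA3, SAR1B, SIL1 and ATF6B, and the falls those of HYOU1, TMED7, PPIB, FKBP9 and CRELD2. As deposited 1 rose (1.61%), CREB3L3, and 23 fell (37.1%), beside 4.63% and 33.4% of all genes. Without 1 array the rises numbered 2 to 9 and the falls 0 to 9; without day 1 replicate 2 there were 2 and 1, without day 1 replicate 1 3 and 0, without day 4 replicate 1 2 and 1, and without either day 2 array 9 and 9.

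TRAM2, a translocon partner linked in mammals to collagen synthesis, read 636 and 657 at day 1, 1662 and 1519 at day 2, 2172 and 1896 at day 3, and 1652 and 1366 at day 4. All later arrays were above day 1. The change was 1.28 ± 0.17 to day 2 (adjusted p = 0.0045) and 1.20 ± 0.17 to day 4 (adjusted p = 0.0027), and the latter passed in all 8 left-out fits. On the deposited scale neither change of TRAM2 passed, at 0.86 to day 2 (limma adjusted p = 0.098) and 0.54 to day 4 (limma adjusted p = 0.18). TUSC3, an oxidoreductase subunit of oligosaccharyltransferase, read 73.6 and 69.6 at day 1, 125 and 218 at day 2, 341 and 357 at day 3, and 256 and 179 at day 4. Its day 1 arrays were the lowest. It rose by day 4 (1.40 ± 0.29, adjusted p = 0.012), a call lost without either day 1 array and without day 4 replicate 1 (adjusted p up to 0.085).

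Of the other list genes that rose, SAR1B, MIA2 and MIA3 act at ER exit and were picked after their values were seen. SAR1B, the GTPase that starts the COPII coat and is needed for chylomicron export in humans, read 1132 and 1495 at day 1, 2437 and 2298 at day 2, 2681 and 2672 at day 3, and 2236 and 2002 at day 4. The day 1 arrays were the lowest. It rose by 0.85 ± 0.17 to day 2 (limma adjusted p = 0.024) and 0.69 ± 0.17 to day 4 (adjusted p = 0.020). The call to day 2 was lost without any 1 array of days 1 to 3. The call to day 4 was lost without day 1 replicate 1 and without day 4 replicate 1. With 1 array left out the change ranged from 0.66 to 1.08 to day 2 and from 0.5 to 0.91 to day 4. MIA2 and MIA3, which encode the ER exit receptors cTAGE5 and TANGO1, rose by 1.47 ± 0.34 (adjusted p = 0.017) and 0.98 ± 0.24 (adjusted p = 0.021), both lost without either day 1 array and without day 4 replicate 1 (adjusted p up to 0.098 and 0.13). Other genes of ER exit went either way. As given above, SEC22B rose, and SEC24A and SEC22C had higher means on day 4 without passing. The list genes SAR1A and TFG had changes of -0.30 and -0.20 (limma adjusted p = 0.23 and 0.34). SEC31A and SEC24D had the -0.29 and -0.12 given above, and SEC13 fell. The erythroid sums given above were also higher on every later array than on day 1, and their part in these values was not tested.

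**Figure D5:**
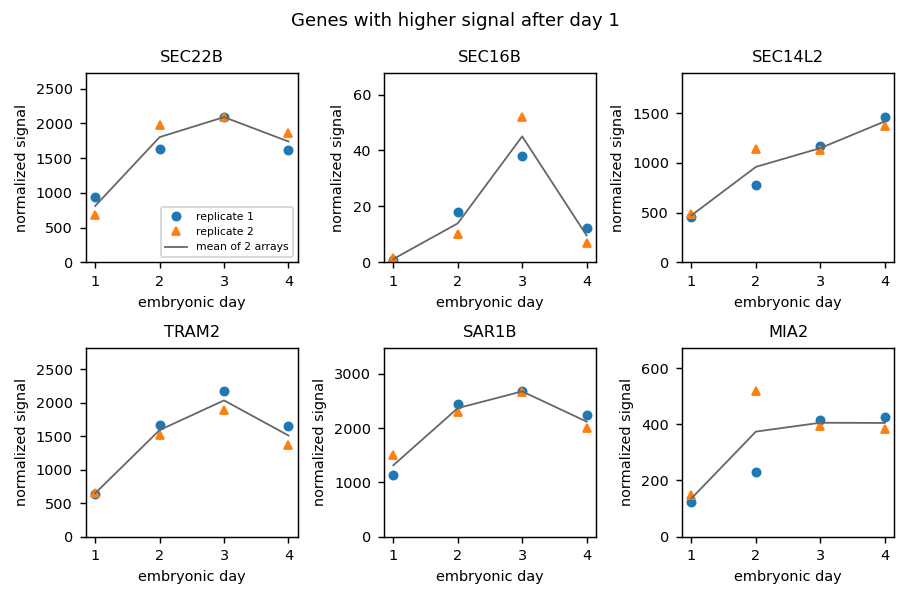
Normalized signal of SEC22B, SEC16B, SEC14L2, TRAM2, SAR1B and MIA2 by embryonic day, with 1 symbol per array and a line through the mean of the 2 arrays. In each panel both day 1 arrays lie below all later arrays.

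The falls of the list included folding factors and a cargo receptor. HYOU1, a large HSP70 relative that recharges HSPA5, read 1171 and 1020 at day 1, 663 and 917 at day 2, 439 and 545 at day 3, and 387 and 546 at day 4 (-1.22 ± 0.25, adjusted p = 0.010). TMED7, a cargo receptor of the early secretory route, read 3397 and 2688 at day 1, 2406 and 2634 at day 2, 2306 and 2052 at day 3, and 1817 and 1633 at day 4 (-0.81 ± 0.16, adjusted p = 0.010). PPIB, the ER cyclophilin, read 4317 and 4588 at day 1, 4600 and 4752 at day 2, 3620 and 3514 at day 3, and 3100 and 3316 at day 4 (-0.47 ± 0.12, adjusted p = 0.022). For all 3 genes, which were chosen by their calls, both day 4 arrays were below both day 1 arrays. The calls of HYOU1 and PPIB were lost without either day 1 array and without day 4 replicate 1 (adjusted p up to 0.070 and 0.13), and that of TMED7 without day 1 replicate 1 (adjusted p = 0.073).

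The probe set chosen for a gene mattered. The 63 genes had 139 probe sets, and 23 genes had 1. Of 54 further probe sets that passed the filter, 33 had a change from day 1 to day 4 of the same sign as the brightest one. When the probe sets of a gene were averaged, 10 genes were lower and 3 higher, with no share of all genes counted beside them. Both probe sets of PDIA4 and of COPB1 were lower on day 4, at -0.54 and -0.64 and at -0.48 and -0.46, and the dimmer one of COPB1 did not pass (adjusted p = 0.081).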

How the data were processed

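The authors deposited MAS5 signal intensities on a linear scale, 1 column per array, per the submitters' processing notes; the sources used here give no version, scaling target or detection calls. The members and lists were chosen with earlier results of these data known. Control probe sets (96) were removed and the other 38439 quantile normalized across the 8 arrays, since trimmed means (2% off each end) differed. Probe sets with a mean normalized signal above the 40th percentile (9.97), 23063 in all, were transformed as log2(signal + 16). One limma fit (version 3.58.1, R 4.3.3; intensity trend, 4 residual and 4.65 prior degrees of freedom) compared the days, with Benjamini-Hochberg adjustment over all probe sets at 0.05. Percentages of all genes refer to 1 probe set per gene and were counted for the main fit and the deposited signals only. Of the probe sets, 27168 had 1 symbol, 177 several and 11094 none; all 63 member symbols matched the current chicken reference and none was renamed. With 2 arrays per day precision is limited. The code was tested on simulated data.

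Genes given in full were HSPA5, HSP90B1, CALR, CANX, SERPINH1, in each role the 2 smallest F-test p and the largest rise and fall from day 1 to day 4, members called between successive days, and 3 called list genes per direction; others are named after their values were seen. Alternatives were no scaling, equal medians, pseudocounts of 1 and 64, other filters, no trend, only the days compared, a replicate block, averaged probe sets and each array left out; 2 were added after seeing the data. Figures were drawn with matplotlib 3.10.9.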

Additional observations from a re-analysis of the deposited data

How the results depend on the processing

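No alternative gave a call between days 2 and 3 or between days 3 and 4. Of the 14 genes lower and 2 higher on day 4 than on day 1, without scaling 29 and 0 were called, without a filter 9 were lower, without an intensity trend 8, from only the days compared 9, and without both arrays rich in mesenchymal markers 9; leaving out 1 array gave 4 to 14 lower and 1 to 3 higher. Deposited signals without day 1 replicate 2 gave 5 lower and 1 higher. From day 1 to day 2 the 2 rises became 1 without a filter or a trend and 0 from only the days compared or from deposited signals, with or without day 1 replicate 2, and 0 to 2 with 1 array left out. The single fall, SRP14, became 0 with equal medians, averaged probe sets, no filter, no trend, only the days compared, a replicate block, both mesenchyme-rich arrays left out or deposited signals without day 1 replicate 2, and 0 to 1 with 1 array left out. On the deposited scale the count stayed at 1, but the gene was PDIA2, and SRP14 did not pass (adjusted p = 0.069). The 12 genes of the F-test became 6 without a trend, 0 from deposited signals without day 1 replicate 2, and 0 to 12 with 1 array left out. The further list, 8 higher and 5 lower, gave 1 and 23 without scaling, 4 and 12 with equal medians, 2 to 9 and 0 to 9 with 1 array left out, and 9 lower without both mesenchyme-rich arrays.

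The main fit did not pair the arrays by replicate number. Same-numbered deviations correlated at 0.38 between days 2 and 3 and at -0.11 to 0.05 between the other days. Replicate 1 of days 2 and 3 shared the high mesenchymal sums given above. With the replicate block 11 genes were lower and 3 higher on day 4, and 9 passed the F-test.

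Some genes named without a call turned sign. Without scaling the changes were -0.44 for COPA, -0.16 for DDOST, -0.55 for DNAJC3, -0.43 for PDIA5, -0.32 for SEC62 and -0.50 for SRP72. With equal medians they were -0.078 for COPA, -0.18 for DNAJC3, -0.066 for PDIA5 and -0.13 for SRP72. Averaged probe sets gave -0.33 for DNAJC3, and deposited signals without day 1 replicate 2 gave -0.24 for COPA, -0.29 for DNAJC3 and -0.42 for SRP72. With 1 array left out SRP72 ranged from -0.058 to 0.50, PDIA5 from -0.035 to 0.446 and CALR from -0.563 to 0.413. The cause of these shifts was not tested. None of the 16 called genes turned sign under any of these alternatives. With 1 array left out they hardly could, since their day 4 and day 1 arrays did not overlap. The filter at the 60th percentile removed PDIA2 and SEC16B, which have no value there.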

Other observations

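Sensors and effectors of the unfolded protein response were read from the further list and compared between day 1 and day 4. CREB3L3, an ER-bound transcription factor of liver and gut, read 503 and 385 at day 1, 730 and 1269 at day 2, 1351 and 1418 at day 3, and 1244 and 1674 at day 4 (1.68 ± 0.28, limma adjusted p = 0.0051, and 0.053 without day 1 replicate 2), and ATF6B, a relative of the sensor ATF6, went from 31.5 and 19.5 at day 1 to 98.7 and 53.0 at day 4 (1.11 ± 0.32, adjusted p = 0.038, and up to 0.22 with 1 array of day 1 or day 3, or day 4 replicate 1, left out). XBP1, whose spliced product drives chaperone genes, read 1987 and 1724 at day 1, 1216 and 1348 at day 2, 1129 and 1113 at day 3, and 1402 and 1595 at day 4 (adjusted p = 0.21 to day 4). Its day 1 arrays were above all later ones, but the F-test missed the threshold (adjusted p = 0.056). The array signal does not separate spliced from unspliced XBP1. The sensors ERN1 and EIF2AK3 (adjusted p = 0.26 and 0.50), ATF4 (0.67), and the degradation genes HERPUD1, SEL1L, DERL1, DERL2 and DERL3 (0.14 to 0.90) did not pass. Nor did EDEM1, EDEM2 and EDEM3 (0.10 to 0.64). The calls depended on scaling. As deposited, where limma called 33.4% of all genes lower, XBP1, ERN1, HERPUD1 and EDEM2 were lower (limma adjusted p = 0.043, 0.030, 0.028 and 0.0093). On that scale CREB3L3 was still higher (0.99, adjusted p = 0.036), and ATF6B did not pass (0.50, adjusted p = 0.30).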
